A study of Sus scrofa with 12 samples.

Results

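On an array of 43221 non-control features, 848 had a log ratio of -2 or lower in differentiated porcine preadipocytes that received a control siRNA and a reference signal well above background on all 12 arrays. For 32 of these 848 features (3.77%), the mean log ratio under each of 3 receptor siRNAs lay less than 0.5 from the control mean. The log ratio is log2 of the processed Cy3 signal over the processed Cy5 signal, minus the median of that array over its non-control features, so -2 stands for a 4-fold lower signal than in the reference, relative to the middle of the array. The 32 features were thus chosen by their control log ratio, by their difference from control under each siRNA and by the Cy5 background mark. Those values describe them and are no evidence of anything further. A further 3 features met the depth and the band but missed the Cy5 mark on 1 or more arrays.

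Each array carried 2 RNAs of female porcine subcutaneous preadipocytes. Cy3 held RNA from cells transfected with an siRNA and then taken through 4 days of adipose conversion in high-glucose medium with serum, insulin, dexamethasone, biotin, pantothenate and octanoate. Cy5 held RNA of untransfected preadipocytes before conversion (day 0), a common reference on every array. The 4 groups of 3 arrays received either AllStars negative control siRNA or 1 targeting siRNA, directed at F2RL2, at LGR4 or at GPR124. A second label field spells the first target R2RL2, and the titles were followed. The dyes were never swapped and the reference was not transfected, so differentiation, transfection and dye cannot be told apart in the log ratio against the reference. Whether replicates came from separate cultures is not given in the labels. The p-values therefore cover the array-to-array spread seen here, and this may be technical.

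Preadipocytes are fibroblast-like precursors that switch on the transcription factors and lipid-handling genes of the fat cell when hormones trigger conversion. In the same period, transcripts typical of the precursor, such as those of the cell cycle, the cytoskeleton and the fibrillar matrix, are commonly turned down. F2RL2 encodes a thrombin-activated receptor of the protease-activated family, LGR4 encodes a receptor for R-spondins that strengthens Wnt signalling, and GPR124, now called ADGRA2, encodes an adhesion-type receptor with a role in Wnt signalling of brain vessels. The files pair no feature with a gene, and 0 of the 43221 identifiers matched the reference tables. Gene names, roles, sequences, the level of the targeted receptors and cell type markers were therefore not analysed here. The features are numbered 1 to 32 from the lowest control mean upwards.

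Of the 848 lowered features, the F2RL2 mean lay within the band for 528, the LGR4 mean for 284 and the GPR124 mean for 103. Most of those outside were above it, with 276 above and 44 below for F2RL2, 530 and 34 for LGR4, and 734 and 11 for GPR124. The median difference of the 848 from control was 0.22 for F2RL2, 0.66 for LGR4 and 1.34 for GPR124. The GPR124 band therefore removed the most features. The 3 comparisons share the control arrays, so their counts are not independent of each other. The 848 were also chosen by a low mean of the same control arrays that are subtracted here. A tilt upward is thus partly built in, and its size was not tested. Over all features fitted by limma the median difference was 0.10 for F2RL2, -0.016 for LGR4 and 0.36 for GPR124. At the edge of the rule, the highest control mean inside was -2.01, and the nearest feature outside had -1.995. The largest absolute difference inside was 0.498, the nearest outside was 0.517, and 16 of the 32 features had a largest difference above 0.4.

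**Figure D1:**
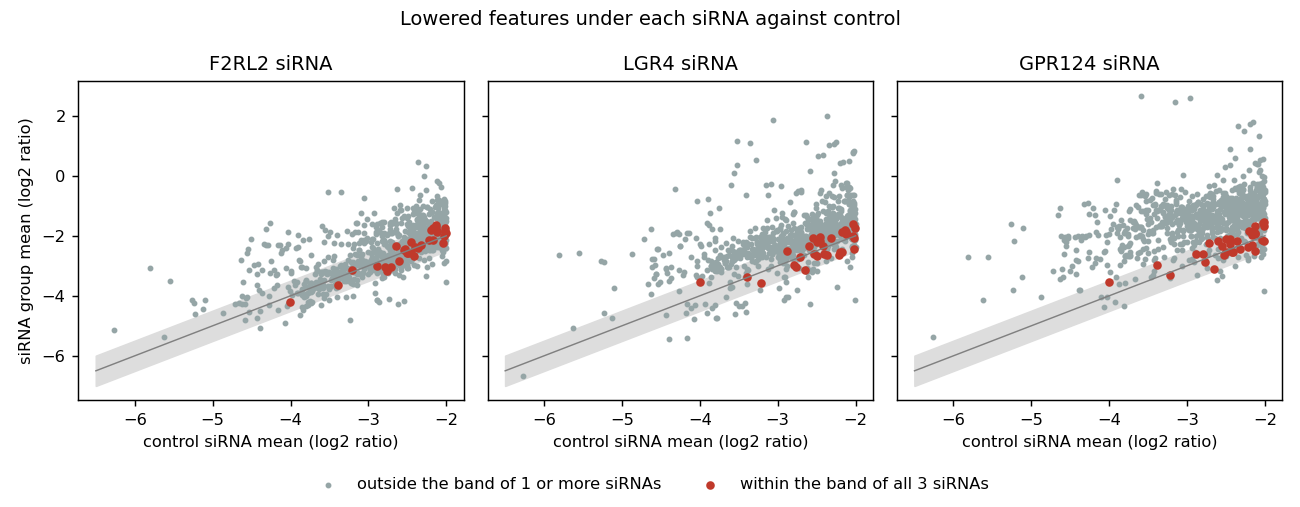
Mean log2 ratio against the day 0 reference under each siRNA (vertical axis) and under control siRNA (horizontal axis) for the 848 lowered features, with the band of 0.5 on either side of equality in grey and the 32 features within all bands in red. The other 816 features lie mostly above the band in the GPR124 panel, where the median difference of the 848 is 1.34.

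The 32 features had a median control log ratio of -2.41, a 5.32-fold lower signal than the reference, and spanned -4.00 to -2.01, or 16.0-fold to 4.02-fold. Only 3 lay below -3, 9 lay between -3 and -2.5, 7 between -2.5 and -2.25, and 13 between -2.25 and -2. These counts use the ratios as computed, but features 3, 8 and 16 were not well above background in Cy3 on any control array. With Cy3 raised to a floor, described below, they came to 5.87-fold, 4.49-fold and 5.35-fold lower than the reference. For feature 16 this equals the computed ratio, since its Cy3 signal already lay at or above the floor. The floor is thus no upper limit on a signal without the mark, and the 3 values are not strict bounds. The medians of all 32 features in the other groups were -2.36 for F2RL2, -2.39 for LGR4 and -2.30 for GPR124. The 816 lowered features outside the band had medians of -2.73 under control, -2.47 under F2RL2, -2.12 under LGR4 and -1.39 under GPR124 siRNA. The log ratio was below 0 for all 32 features on all 12 arrays, and below -1 on all 12 arrays for 29. All 32 were called lower than the reference in the control group by limma (adjusted p from 3.81e-10 to 0.00136), where 37.6% of all 32346 fitted features were called lower. The rule fixed that direction. The test is against 0 with the reference counted as 1 sample, and it leaves out the spread of the reference itself.

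**Figure D2:**
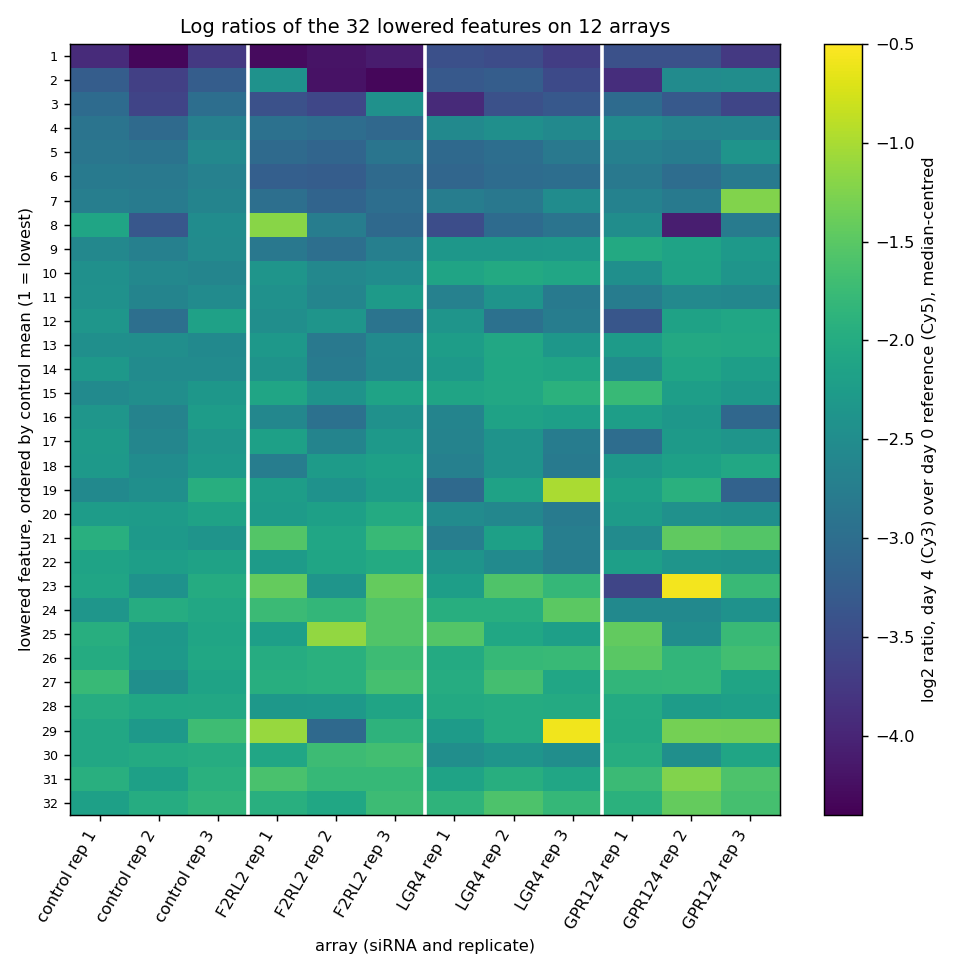
Heat map of the median-centred log2 ratio of day 4 over day 0 RNA for the 32 features (one per line, ordered by control mean) on the 12 arrays (one per column, 4 siRNA groups of 3). Feature 1 is the darkest line in the control group, and single lighter cells such as feature 23 on GPR124 replicate 2 (-0.57) mark arrays that stand apart from their own group.

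The feature with the lowest control mean was AGPOA3-28673. Its control log ratios were -3.92, -4.33 and -3.76. They were -4.29, -4.19 and -4.10 under F2RL2 siRNA, -3.44, -3.50 and -3.69 under LGR4 siRNA, and -3.44, -3.43 and -3.76 under GPR124 siRNA. All 3 LGR4 arrays lay above all 3 control arrays, while the lowest GPR124 array lay just inside the control range. The differences from control were -0.19 for F2RL2, 0.46 for LGR4 and 0.46 for GPR124 (SE 0.15 each; limma adjusted p = 0.48, 0.067 and 0.030). After normexp background correction and loess they were -0.21, 0.29 and 0.072 (limma adjusted p = 0.12, 0.028 and 0.55), so the call moved from GPR124 to LGR4. With slide as a block in the limma fit none was called (adjusted p = 0.55, 0.51 and 0.44). The median GPR124 difference over all fitted features was 0.36. The control mean of this feature was -4.00 ± 0.30 (SD, n = 3), 16.0-fold below the reference. This feature met the rule in 8 of the 12 sets that leave out 1 array.

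AGPOA3-00808, feature 4, had the next lowest control mean among features whose Cy3 signal was well above background on all 12 arrays. Its log ratios were -2.91, -3.05 and -2.70 under control siRNA, -2.95, -3.001 and -3.08 under F2RL2 siRNA, -2.54, -2.46 and -2.55 under LGR4 siRNA, and -2.53, -2.65 and -2.64 under GPR124 siRNA. The F2RL2 arrays overlapped the control arrays, while the LGR4 and GPR124 arrays all lay above them. The differences were -0.12 for F2RL2, 0.37 for LGR4 and 0.28 for GPR124 (SE 0.099 each; limma adjusted p = 0.47, 0.028 and 0.037). On the processed signals it was the only one of the 32 called in 2 comparisons. After normexp background correction and loess it was called in none (LGR4 adjusted p = 0.065; GPR124 difference 0.0012, adjusted p = 0.99), while features 6, 9, 20 and 28 were each called in 2. The control mean of feature 4 on the processed signals was 7.40-fold below the reference.

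On the processed signals, feature 11 lay closest to control over the 3 siRNAs, with a largest absolute difference of 0.114. Its log ratios were -2.43, -2.64 and -2.52 under control, -2.42, -2.62 and -2.27 under F2RL2, -2.69, -2.38 and -2.80 under LGR4, and -2.77, -2.57 and -2.60 under GPR124 siRNA, and the groups overlapped throughout. Its mean Cy5 signal of 326308 was among the brightest. By the scanner files' own mark, the Cy5 signals of features 11, 17, 20 and 22 were scaled up from a scan at lower detector gain on all 12 arrays. Feature 28, at -1.98, -2.07 and -2.06 under control, -2.32, -2.29 and -2.13 under F2RL2, -2.02, -1.998 and -2.01 under LGR4, and -2.02, -2.24 and -2.20 under GPR124 siRNA, was the other feature for which the 95% intervals of all 3 differences lay inside the band. For the remaining 30, 1 or more intervals reached beyond 0.5, so these data do not bound their difference from control at the size the rule used. The name resistant is not carried over to any of the 32 features here. For features 11 and 28 the intervals surround differences that the rule had limited, and the 2 were picked by those intervals. The fit behind the intervals also leaves out slide, which moved with the groups. The intervals of features 11 and 28 are thus no separate evidence of a bound. After loess both were called lower under GPR124 siRNA (differences -0.47 and -0.41; limma adjusted p = 0.0072 and 0.00014), feature 28 also under F2RL2 siRNA (-0.26; limma adjusted p = 0.0079), and the loess control mean of feature 28 missed the limit of -2. On the processed signals, interval by interval, 12 of the 32 lay inside the band for F2RL2, 6 for LGR4 and 9 for GPR124, and the median SE of a difference was 0.15.

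**Figure D3:**
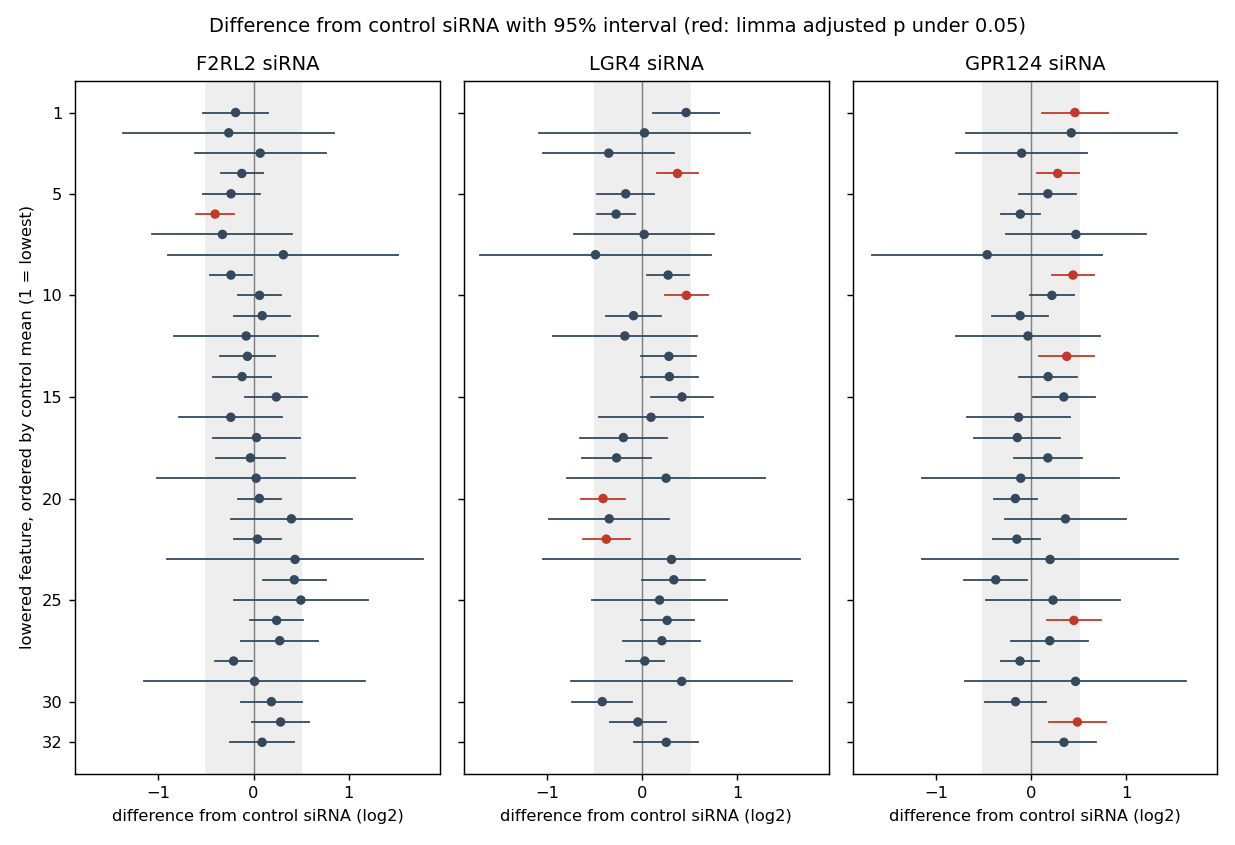
Difference of each siRNA group from control siRNA (log2, horizontal axis) with its 95% interval for the 32 features, in 3 panels with the band of 0.5 shaded and features with a limma adjusted p under 0.05 in red. All points lie inside the band by construction, while for 30 features at least 1 interval runs past it.

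The differences of the 32 features were spread on both sides of control. Under each siRNA 19 lay above control and 13 below, 8 lay above control in all 3 comparisons, 2 lay below in all 3, and 22 were mixed. The median difference was 0.037 for F2RL2 (range -0.40 to 0.50), 0.060 for LGR4 (-0.49 to 0.46) and 0.19 for GPR124 (-0.46 to 0.49). With 1 array left out, these medians ran from -0.047 to 0.10 for F2RL2, 0.0014 to 0.14 for LGR4 and 0.11 to 0.24 for GPR124, so the F2RL2 median lay on either side of 0. Over all fitted features the median difference on this scale was 0.10, -0.016 and 0.36. Relative to that shift, the members' medians came to -0.068, 0.075 and -0.18. With the slide as a blocking term the same quantities came to 0.070, 0.28 and 0.056, and after loess to 0.00046, 0.074 and -0.076, so the F2RL2 and GPR124 signs depended on the setting. Because each siRNA was held to control and not to the others, the siRNA groups could differ from each other by more: the F2RL2 mean lay over 0.5 from the LGR4 mean for 5 features and from the GPR124 mean for 6, and the LGR4 mean lay that far from the GPR124 mean for 3.

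By limma with Benjamini-Hochberg adjustment over all fitted features, 1 of the 32 was called different from control under F2RL2 siRNA (13.3% of all features), 4 under LGR4 siRNA (17.5%) and 6 under GPR124 siRNA (50.2%). The band bounds these differences, so nothing is read from the counts. The F2RL2 call was feature 6, with -2.79, -2.82 and -2.68 under control and -3.22, -3.25 and -3.04 under F2RL2 siRNA, 2 groups that do not overlap (difference -0.40, SE 0.092, adjusted p = 0.017). Under LGR4 siRNA, features 4 and 10 were called higher and features 20 and 22 lower. Feature 10 stood at -2.44, -2.57 and -2.63 under control and at -2.12, -2.03 and -2.09 under LGR4 siRNA, with no overlap. All 6 GPR124 calls were higher than control, and 22 of the 32 features were called in no comparison. The arrays of the siRNA group did not overlap those of control for 7, 12 and 7 of the 32 features, against 31.9%, 46.4% and 64% of all fitted features. The counts changed when single arrays were left out, and so did the share over all features. The F2RL2 call was lost without control replicate 1 (7.85% of all features called), control replicate 3 (7.33%) or F2RL2 replicate 1 (10.3%), and there were 2 without LGR4 replicate 3 (11.7%). The LGR4 calls fell to 1 without control replicate 1, control replicate 2, LGR4 replicate 2 or LGR4 replicate 3, and to 2 without control replicate 3, where 10.8% to 12% of all features were called. The GPR124 calls fell to 1 without control replicate 2 (42.1%) and to 3 without GPR124 replicate 2 (46.8%).

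Slides moved with the groups. The first of 3 slides held the control arrays and F2RL2 replicate 1, the second held the other F2RL2 arrays and LGR4 replicates 1 and 2, and the third held LGR4 replicate 3 and the GPR124 arrays. With slide as a block, limma called 0 of the 32 in each comparison, where the share over all features was 4.47% for F2RL2, 2.45% for LGR4 and 4.31% for GPR124. All 11 differences called without the block kept their direction with it, 9 larger and 2 smaller. Among the larger, feature 6 went from -0.40 to -0.45 under F2RL2 siRNA, and feature 10 from 0.46 to 0.65 under LGR4 siRNA. These differences were picked as called on the same arrays, so their direction is no separate support. The first slide is tied to the others only through F2RL2 replicate 1, and the third only through LGR4 replicate 3. At an unadjusted limma p under 0.05 the fit with the block gave 2 of the 32 for F2RL2, 8 for LGR4 and 3 for GPR124. The share over all features at that limit was not computed, so nothing is read from these counts. Within the first slide, where F2RL2 has 1 array, the median difference of the 32 from control was 0.063. No call is read there, since such a fit assumes the lone array to vary like the control arrays. Control shares no slide with LGR4 or GPR124, so no within-slide value exists for them. Cy5 was well above background for 23594 to 26485 features on the GPR124 arrays and 27003 on F2RL2 replicate 3, against 30350 to 32394 on the others. Within-group correlations of the log ratio were 0.94 to 0.95 for control and 0.81 to 0.88 for the siRNA groups. The part of slide and signal in the differences was not tested.

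Among the features called under LGR4 siRNA, 20 and 22 had the most similar values of any of the 496 pairs of the 32, with a mean absolute difference of 0.054 over the 12 arrays against a median of 0.54 over all pairs. Feature 20 had -2.246, -2.256 and -2.15 under control and -2.52, -2.60 and -2.77 under LGR4 siRNA. Feature 22 had -2.14, -2.22 and -2.16 under control and -2.38, -2.53 and -2.74 under LGR4 siRNA. In both, all LGR4 arrays lay below all control arrays (differences -0.41 and -0.38; limma adjusted p = 0.020 and 0.041). The pair was singled out after its values were seen, and whether both features read the same transcript was not analysed here.

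The spread between arrays divided the 32 features. In 16 of them no group's 3 arrays spanned more than 0.5, and in 10 at least 1 group spanned more than 1. The widest was feature 23, whose GPR124 arrays read -3.59, -0.57 and -1.76 against -2.10, -2.41 and -2.001 under control. Its GPR124 mean of -1.97 met the band although 2 of the 3 arrays lay over 0.5 from the control mean. Feature 7 had GPR124 values of -2.67, -2.81 and -1.24 against -2.73, -2.77 and -2.64 under control, so 1 array stands apart in its difference of 0.47. Feature 8, whose Cy3 signal was not well above background on any control or GPR124 array, met the rule in 4 of the 12 sets that leave out 1 array. In all 12 such sets 14 features met the rule, 10 met it in 10 or 11, and 8 in 4 to 9.

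The rule did not use the background mark of Cy3. Cy3 was well above background on all 12 arrays for 21 of the 32 (65.6%), compared with 594 of the 816 lowered features outside the band (72.8%). It was so on 6 arrays or fewer for 6 of the 32 (18.8%) and for 71 of the 816 (8.70%). The median SD over 3 arrays was 0.11 in the control group for the 21 features and 0.24 for the other 11, and in the GPR124 group 0.17 and 0.59. Among wide groups the mark was mixed: 2 of the 10 features with a group spanning over 1, features 7 and 25, had Cy3 well above background on all 12 arrays. For the floored ratios of features 3, 8 and 16, the lowest signal among features well above background served as the floor on each array. The higher of that floor and the feature's own signal was averaged over the control arrays. The signals used here were rebuilt from the median-centred log ratio and the mean log2 signal of both dyes, quantile-normalized between arrays. Beyond the scanner software's dye normalization, the dyes were thus balanced only by the median centring. No member spot carried an outlier mark or was saturated. Over all features, each array of the third slide had 154 to 335 spots with an outlier mark, against 1 to 4 on each other array. The Cy5 signal of the 32, as a geometric mean over arrays, had a median of 787 against 1143 for the 816, and ran from 111 to 359183.

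**Figure D4:**
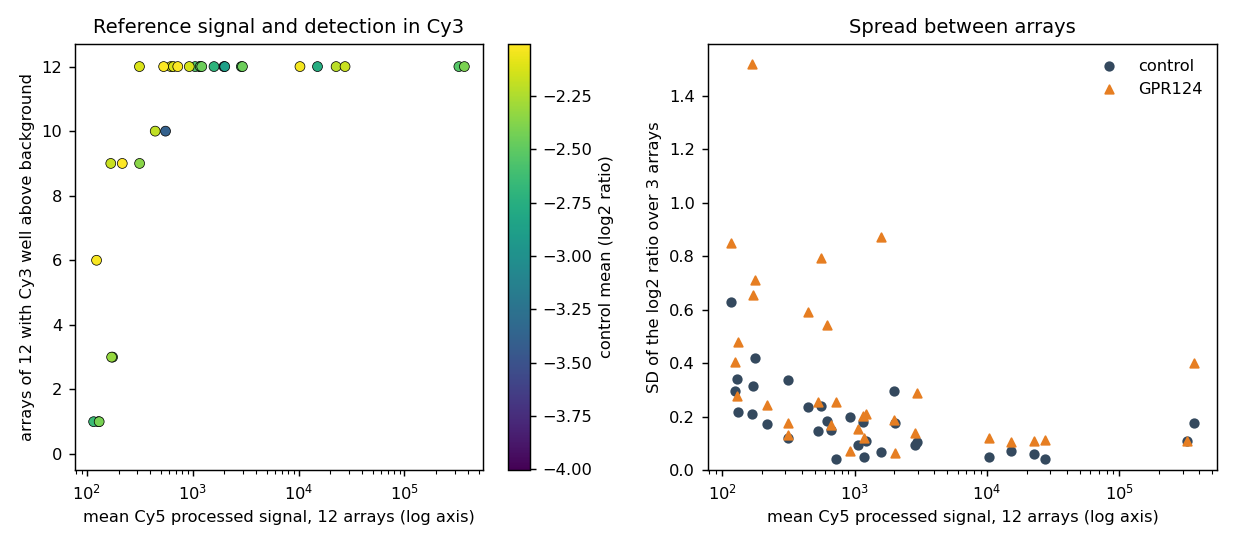
Left, the number of 12 arrays on which Cy3 was well above background against the mean Cy5 processed signal (log axis), coloured by control mean log2 ratio. Right, the SD over 3 arrays of the log2 ratio in the control and GPR124 groups against the same signal. The 6 features with Cy3 well above background on 6 arrays or fewer lie at Cy5 signals of 117 to 176, and the GPR124 spread is widest at the dim end.

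Of the 32 features, 9 combined a Cy3 signal well above background on all 12 arrays, no group spanning more than 0.5, and the rule met whichever array was left out. These were features 4, 5, 6, 11, 13, 14, 20, 22 and 28, a list made after the values were seen. After loess, 5 of the 9 (6, 11, 20, 22 and 28) were called lower under GPR124 siRNA, and 14, 22 and 28 no longer met the rule. In that setting 39.4% of all fitted features were called in either direction, so nothing is read from the count of 5. Of these 9, 4 had a mean Cy5 signal of at most 10000 and 5 had more, while over all 32 features only 6 exceeded 10000, a limit also set after the values were seen.

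The GPR124 differences of the members depended on how the signals were normalized. So did the median GPR124 difference over all fitted features, 0.36 on the processed signals and 0.026 after loess. The member values below are not corrected for that shift, and its part in the change of calls was not tested. On the processed signals the 6 bright features all lay slightly below control, from -0.16 to -0.11, and none was called, while the other 26 had a median of 0.23 with 19 above control and all 6 calls. After normexp background correction and within-array loess, the 6 bright features lay at -0.50 to -0.40, all but feature 17 called lower, and the other 26 had a median of 0.023 with 1, feature 24, called lower. The GPR124 calls were 6 higher on the processed signals and 6 lower after loess, where 39.4% of all features were called, and 0 features were in both sets. The loess values of the control mean also lay higher, with a median of -1.83, and 14 of the 32 stayed at or below -2. For F2RL2 the count was 3 after loess, all lower and 1 shared (17.9% of all features), and for LGR4 it was 6, 5 higher and 1 lower, with 2 shared (23.1%).

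**Figure D5:**
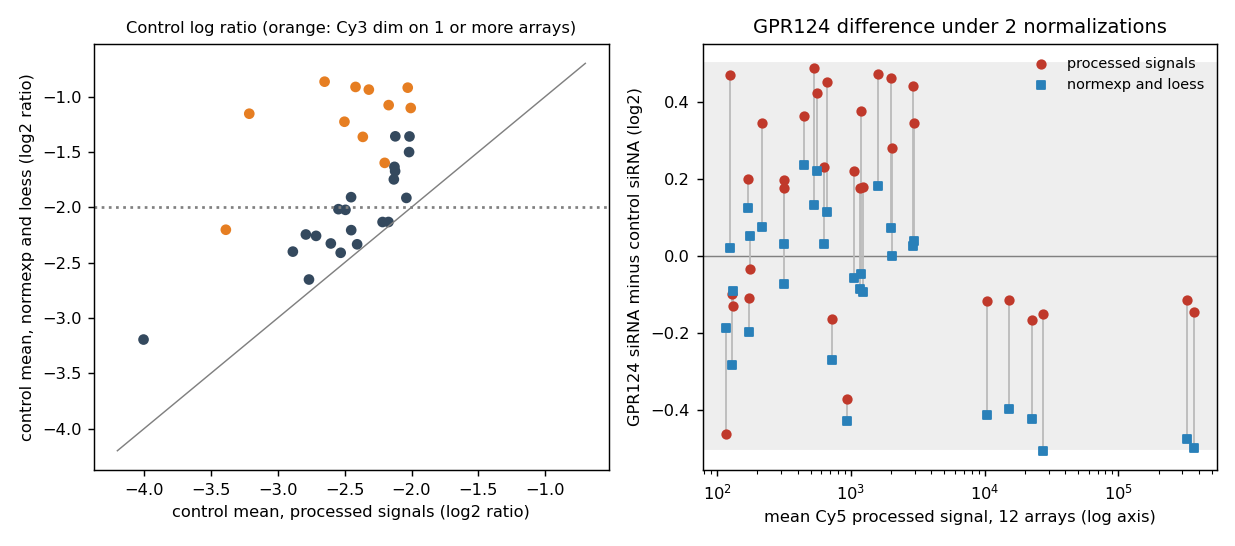
Left, the control mean log2 ratio of the 32 features on the processed signals against that after normexp and loess, with the line of equality and the limit of -2 dotted. Right, the GPR124 minus control difference (log2) under both normalizations against the mean Cy5 signal (log axis), with a line joining the values of each feature. The 6 brightest features, at the right end, lie at -0.16 to -0.11 on the processed signals and at -0.50 to -0.40 after loess. The median over all fitted features was 0.36 on the processed signals and 0.026 after loess.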

How the data were processed

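RNA was measured on 12 Agilent arrays of 2 colours, in 4 groups of 3. The scanner images were read with Agilent Feature Extraction 9.5.3.1, per the file headers. The deposited processed signal is an intensity in linear units, background-subtracted and dye-normalized by that software, and the deposited median spot and background intensities are not normalized. The deposited log10 ratio column was not used for any value. The authors' value table of log2 ratios was checked against log2 of the processed Cy3 over Cy5 signal, with a largest difference of 5e-10.

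The members, lists and tests were chosen with earlier results of these data known. The rule's own log ratio was used throughout: log2 of processed Cy3 over Cy5 minus the array's median, over 43221 non-control features (1417 control spots left out). limma 3.58.1 in R 4.3.3 fitted 1 mean per group over all 12 arrays, for 32346 features that were well above background in Cy3, or in Cy5, on 3 or more arrays, with outlier-marked spots left out and Benjamini-Hochberg adjustment at 0.05. The script was tested on simulated data. The members were fixed by the rule on all spots, and their calls come from the limma fit. This scale was kept as the main one because the rule is written on it; normexp (offset 50) with loess was the alternative. The named-gene rule and marker lists could not be used, since no feature is paired with a gene. The rule for unnamed features gave 2 identifiers, the member with the lowest control mean and the next lowest that was well above background in Cy3 on all arrays. Replicate numbers were not treated as pairs in the main fit. Over 18 same-numbered pairs, deviations from the group means correlated at -0.29 to 0.30. With means of 3 arrays and no comparison with differently numbered pairs, this cannot exclude pairing. The number of arrays, 3 per group, limits the precision.

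Other alternatives were no centring, no Cy5 mark, a Cy3 mark, other depths and bands, no filter, slide or replicate as a block, Cy3 alone and leaving out each array. The call against the reference and the count without the third slide were added after the data were seen.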

Additional observations from a re-analysis of the deposited data

How the results depend on the processing

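The number of features meeting the rule was 32, and it became 21 with the Cy3 mark on all arrays required, 6 with a band of 0.25, 91 with a control limit of -1.5, 12 with a limit of -2.5, and 291 without the arrays of the third slide and without the GPR124 band, an alternative added after the data were seen. It ran from 27 to 32 over the 12 sets that leave out 1 array, and was 40 after loess, of which 13 were among the 32. The median control log ratio was -1.83 after loess and -2.30 without centring, and -2.45 to -2.30 with 1 array left out. The number not well above background in Cy3 was 11 in every leave-one-out set and 3 with the scanner's significance mark in place of the well-above mark. Calls moved as follows, with the share of all features called in parentheses. For F2RL2, 1 (13.3%) became 3 after loess (17.9%), 0 with slide as a block (4.47%) and 0 on the first slide alone (12.6%), where that group has 1 array. For LGR4, 4 (17.5%) became 2 without the filter (11.6%), 6 after loess (23.1%), 0 with the slide block (2.45%) and 2 with Cy3 alone (17.1%). For GPR124, 6 (50.2%) became 4 without the filter (38.3%), 0 with the slide block (4.31%) and 7 with Cy3 alone (33.4%). Leaving out 1 array gave 0 to 2 calls for F2RL2 (7.33% to 17.8%), 1 to 5 for LGR4 (10.8% to 20.9%) and 1 to 6 for GPR124 (42.1% to 53.7%). With the replicate number as a block the calls were 1 (10.3%), 2 (14.4%) and 4 (47.4%). The median GPR124 difference of the members, 0.19, turned to -0.050 after loess and to -0.32 with Cy3 alone, and was 0.29 with the slide block. Over all fitted features the median GPR124 difference was 0.36, and 0.026 after loess, -0.061 with Cy3 alone and 0.24 with the slide block. For LGR4 the median of the members was 0.060, and 0.13 with the slide block and 0.14 without control replicate 3. All 32 were called lower than the reference in each setting run for that comparison, a direction the rule fixed. The share of all features called in either direction ran from 45.8% to 63.2% over those settings. The cause of these changes was not tested.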
